A study of Mus musculus with 159 samples.

Results

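Fibrotic mouse liver was profiled with NanoString GeoMx, a platform that hybridizes barcoded probes to a tissue section and counts the barcodes released from 1 illuminated area at a time, and the areas that stained for the stellate cell protein DESMIN were compared with the areas left after all staining. Regions of interest (ROIs) in 4 livers were split by antibody staining into DESMIN+ segments (DESMIN+/MARCO-/IBA1-), macrophage segments and Other segments, which were negative for DESMIN, MARCO and IBA1. The comparison used 41 DESMIN+ and 49 Other segments, 90 of the 159 segments analysed here, and was made over all 607 genes of the table. Of the DESMIN+ segments, 12, 9, 11 and 9 came from livers 1 to 4, and 13, 13, 13 and 10 of the Other segments did. ROIs were chosen by MARCO staining, a scavenger receptor of macrophages, as MarcoHi (25 DESMIN+ and 28 Other segments) or MarcoLo (16 and 21), and 41 of the 49 ROIs held both segment types. The mice were wild-type C57BL/6 animals that, according to the methods, were 8 weeks old at the start and all received carbon tetrachloride (CCl4), a liver toxin that causes fibrosis, for 6 weeks. Some mice also received bone marrow-derived MARCO+ macrophages and the others saline. The labels call livers 1 and 3 "treated CCl4" and livers 2 and 4 "control" and do not say which received cells, so both names are used here only as labels. No liver without CCl4 was part of the comparison.

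Hepatic stellate cells lie between the sinusoidal endothelium and the hepatocytes and store vitamin A in the healthy liver. After injury they turn into contractile, matrix-producing cells and are the main source of scar collagen. DESMIN is an intermediate filament protein of stellate cells and of the muscle cells of vessel walls, so a DESMIN+ area can hold both. The Other areas have no defining antibody. Hepatocytes make up most of the liver, but the authors had limited the table to genes expressed by stellate cells in single-cell data and removed hepatocyte genes, so that 1 of 115 listed hepatocyte genes was analysed and the makeup of the Other areas could not be checked by hepatocyte markers.

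The depth of both segment types did not overlap. Counts recovered from the normalized values summed over the 607 genes to between 1448 and 16715 in DESMIN+ segments (median 3675) and to between 75571 and 448875 in Other segments (median 209469). Each segment had been scaled so that its 75th percentile over the genes was 26.074. In the median DESMIN+ segment that percentile stood at 7 counts, 1 count was worth a normalized value of 3.72, and 14.3% of the genes stood at 1 count. No gene stood at 1 count in an Other segment. Depth and segment type therefore cannot be told apart in these data. A segment also pools cells, so fewer cells of a type and less RNA per cell cannot be told apart.

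Values are normalized values throughout. The level of a gene in a liver was the mean of its segments in each ROI class, taken as log2 after adding 1 and then averaged over both classes, and the level is given below on the scale of the normalized values. Differences are log2 differences of DESMIN+ minus Other over 4 livers. The standard error (SE) is the moderated one of limma, in which the spread over livers is drawn toward that of all genes. Both come from a limma fit in which each liver was its own block. A gene was called at a Benjamini-Hochberg adjusted p below 0.05 over all 607 genes. The livers are the replicates and the segments of a liver are not. For a single gene, an exact two-sided permutation test that flips the signs of 4 livers cannot give a p under 0.125 (2 of 16 sign assignments), so the limma values rest on a spread shared across genes.

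Every collagen chain and 28 of 29 proteoglycans and matrix glycoproteins were higher in DESMIN+ segments, and 27 of 34 ER, Golgi and transport genes were lower. Of the 607 genes, 249 were higher in DESMIN+ segments (41.0%) and 199 were lower (32.8%), so that a call in either direction was common, and the median difference of all genes was 0.04. The differences ran from -1.39 (*Oaf*) to 3.28 (*Dcn*). Beyond a difference of 1 there were 95 higher and 18 lower genes among those called. The levels of the 4 livers did not overlap for 201 genes above (33.1%) and 179 below (29.5%) the Other segments. The split between directions depended on the scaling. When segments were re-centred on their own medians, the median of all genes moved to -0.26 and the calls to 172 higher and 302 lower genes, so the higher share of the calls went from 55.6% to 36.3%. Beyond a difference of 1 it gave 55 higher and 81 lower genes, which turned that order around. With a background subtracted from each segment, the median moved to 0.45 and the calls to 328 higher and 172 lower (65.6% higher). Under all 6 settings of scale and floor, the one reported here included, 164 genes were higher and 159 lower.

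**Figure D1:**
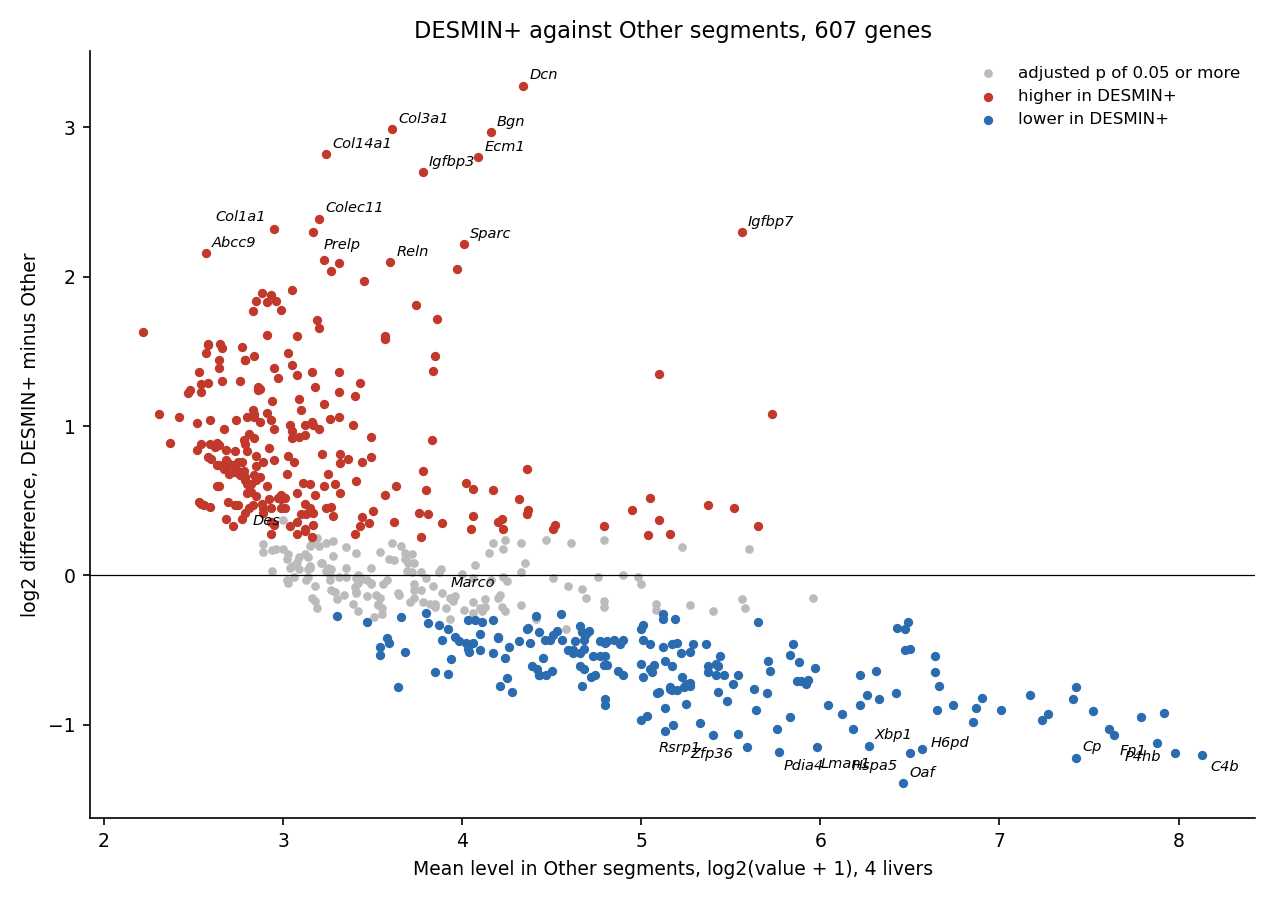
Difference between DESMIN+ and Other segments (log2, DESMIN+ minus Other, y axis) against the mean level in Other segments (log2 of the normalized value plus 1, x axis), with 1 point per gene for 607 genes and 4 livers. Red and blue points are genes called higher (249) and lower (199), and the named genes are the 12 highest, the 12 lowest, the markers, *Des* and *Marco*. All 41 genes with a mean level above 6 in Other segments were called lower. The level in Other segments is also subtracted in the difference, so choosing genes by it favours that direction.

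The direction followed the level of a gene. The genes were split into 3 parts by their mean level over both segment types. In the part with the highest levels, 139 of 202 genes were lower and 38 higher (median -0.53). In the part with the lowest levels, 125 of 203 were higher and 8 lower (median 0.45). The level moved together with the direction of the calls over all genes, and its part in each single result was not tested. The collagen, proteoglycan and matrix glycoprotein genes went with one direction at every level, with 16 of 16 members higher in the lowest part, 13 of 13 in the middle part and 10 of 11 in the highest part, where their median was 2.22.

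The 5 genes that mark stellate cells in single-cell data set the DESMIN+ segments apart from the Other segments in all 4 livers. *Dcn* encodes decorin, a small proteoglycan that coats collagen fibrils. Its level was 185, 242, 193 and 173 in the DESMIN+ segments of livers 1 to 4 and 21.5, 14.4, 20.6 and 21.5 in the Other segments. This was a difference of 3.28 (SE 0.15, 9.74-fold, limma adjusted p = 1.65e-09), and *Dcn* was higher in 41 of 41 ROIs with both segments. The lowest single DESMIN+ segment stood at 48.4 and the highest Other segment at 48, so that the single segments of both types did not overlap either.

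*Col3a1*, a chain of the fibrillar collagen type III, stood at 110, 100, 92.7 and 81.5 in DESMIN+ and at 13.3, 9.08, 13.1 and 9.79 in Other segments of livers 1 to 4, a difference of 2.99 (SE 0.12, adjusted p = 5.85e-10). *Ecm1*, a secreted glycoprotein that restrains the activation of latent TGF-beta, stood at 115, 140, 90.3 and 132 against 17.1, 13.4, 14.9 and 19.5, a difference of 2.80 (SE 0.13, adjusted p = 1.65e-09). Both were higher in 41 of 41 ROIs. *Colec11*, a collectin that binds sugars on microbes and starts the lectin pathway of complement, stood at 53.8, 50.5, 38.4 and 47.6 against 8.85, 7.00, 8.49 and 8.58 (2.39, SE 0.12, adjusted p = 2.82e-09, higher in 40 ROIs). *Reln*, the secreted glycoprotein reelin, stood at 59.9, 66.4, 43.5 and 38.5 against 11.9, 9.66, 13.2 and 10 (2.10, SE 0.15, adjusted p = 6.95e-08, higher in 37 ROIs). The livers of the 2 segment types did not overlap for any of the 5 markers, beside 33.1% of all genes with DESMIN+ above. The labelled cell type thus had its markers, although the table had been limited to genes of stellate cells and the antibodies had chosen the areas.

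**Figure D2:**
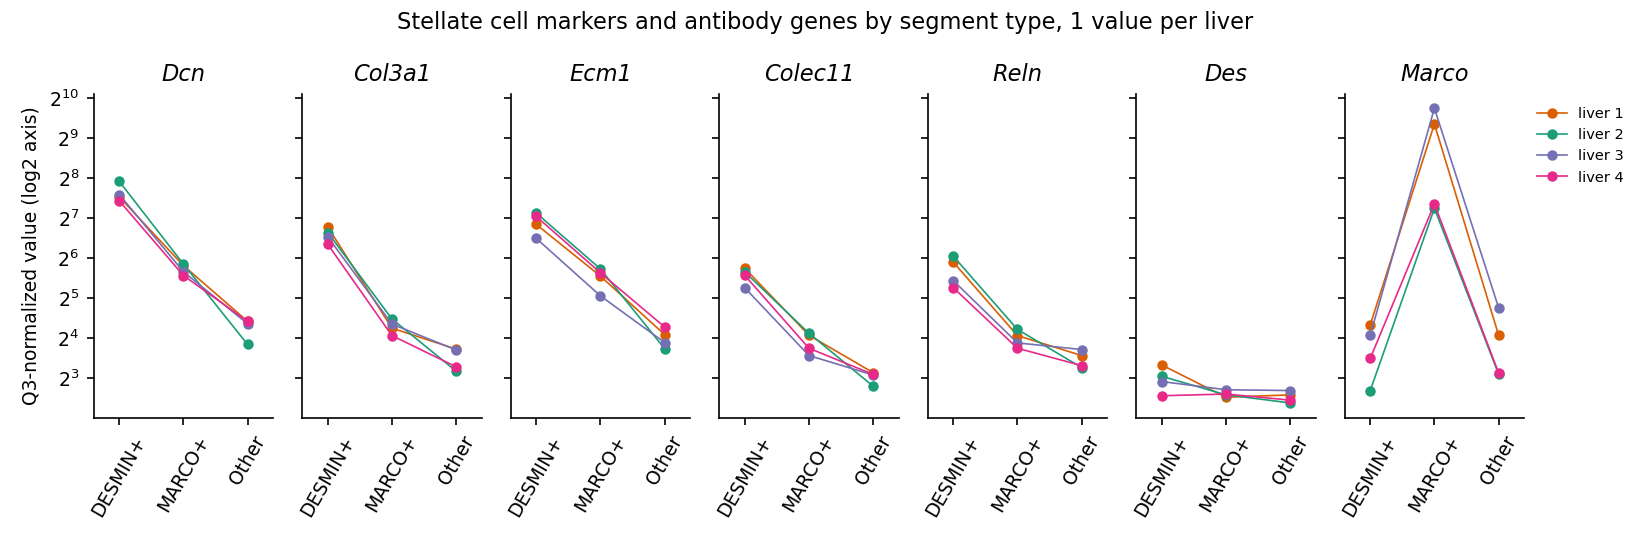
Levels of the 5 marker genes, *Des* and *Marco* in DESMIN+, Other and MARCO+ segments (normalized value, log axis), with 1 point per liver and a line joining the points of each of the 4 livers. The DESMIN+ points of *Dcn* lie between 173 and 242 and its Other points between 14.4 and 21.5, whereas the points of *Des* overlap.

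The transcript of the stained protein separated the segments far less. *Des* stood at 10.1, 8.30, 7.58 and 5.93 in DESMIN+ and at 6.02, 5.24, 6.49 and 5.50 in Other segments, so that the livers overlapped. The difference was 0.38 (SE 0.12, adjusted p = 0.011), with a higher value in 24 of 41 ROIs, and it did not pass after re-centring, without liver 1 (0.29) or without liver 2 (0.31). The median segment stood at 8.69 in DESMIN+ areas, where 1 count was worth 3.72, so that the level of *Des* rests on few counts. *Marco*, the transcript of the macrophage receptor excluded by the gate, stood at 20.2, 6.49, 16.9 and 11.3 in DESMIN+, at 17.0, 8.64, 27.3 and 8.82 in Other and at 654, 152, 859 and 164 in MARCO+ segments. DESMIN+ minus Other was -0.12 (SE 0.15, adjusted p = 0.507), with a sign that depended on the setting, and DESMIN+ minus MARCO+ was -4.66. Transcripts of *Aif1*, which encodes IBA1, were not analysed here.

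Every collagen chain in the table was higher in DESMIN+ segments. This was 5 of 5 fibrillar chains (median 1.88) and 6 of 6 other chains (median 1.6), against 41.0% of all genes and a median of 0.04. The livers did not overlap for any of the 11, beside 33.1% of all genes with DESMIN+ above. *Col1a1*, the main chain of scar collagen type I, stood at 35.8, 45.5, 38.5 and 31.7 in DESMIN+ and at 6.98, 6.37, 7.92 and 5.84 in Other segments (2.32, SE 0.11, adjusted p = 2.82e-09). Its partner chain *Col1a2* stood at 23.3, 28.2, 33.2 and 24.6 against 7.10, 5.68, 8.12 and 5.82 (1.88, SE 0.11). *Col14a1*, a collagen that binds the surface of fibrils, had the largest difference of the non-fibrillar chains, with 73.9, 77.5, 65.5 and 49.6 against 10, 7.15, 9.02 and 7.78 (2.82, SE 0.13). The basement membrane chains *Col4a1* and *Col4a2* differed by 1.72 and 1.37, and the beaded filament chains *Col6a1*, *Col6a2* and *Col6a3* by 1.78, 1.11 and 1.47. The smallest difference was that of *Col5a2*, a chain of the collagen that starts fibrils, at 0.66 (SE 0.11, adjusted p = 8.60e-05), with a higher value in 27 of 41 ROIs.

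Of 29 proteoglycans and matrix glycoproteins, 28 were higher in DESMIN+ segments and 1 was lower (median 1.29), beside 41.0% and 32.8% of all genes. *Bgn*, the proteoglycan biglycan, stood at 141, 141, 140 and 137 in DESMIN+ and at 18.7, 14.6, 19 and 15.8 in Other segments, a difference of 2.97 (SE 0.11, adjusted p = 5.11e-10), and the 4 DESMIN+ values lay within a range of 137 to 141. *Prelp*, which anchors basement membranes to connective tissue, differed by 2.30, *Sparc*, which binds collagen outside the cell, by 2.22, *Tgfbi*, a matrix protein induced by TGF-beta, by 2.11, and *Lum*, a regulator of fibril diameter, by 1.36. *Emilin1*, a glycoprotein of elastic fibres, differed by 1.84 and *Efemp1*, a fibulin, by 1.63. The exception was *Fn1*, which encodes fibronectin, both the cellular form of matrix and the plasma form that hepatocytes secrete. It stood at 99.7, 115, 88.3 and 130 in DESMIN+ and at 225, 259, 200 and 260 in Other segments, a difference of -1.12 (SE 0.10, adjusted p = 6.09e-07). No ROI had a higher value in its DESMIN+ segment. The probe does not separate the 2 forms.

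Among the enzymes and inhibitors that process matrix, 13 of 14 were higher (median 0.78), beside 41.0% of all genes. *Serpine2* was called in neither direction. *Mmp2*, which cleaves denatured and basement membrane collagen, stood at 18.4, 16.7, 20.4 and 14.9 in DESMIN+ and at 7.61, 6.64, 9.79 and 6.55 in Other segments (1.11, SE 0.10, adjusted p = 7.42e-07). Its inhibitor *Timp2* differed by 1.01. *Serpinh1*, the chaperone that folds procollagen, differed by 1.06, and *Crtap*, a subunit of the complex that hydroxylates collagen prolines, by 0.77. *P4hb*, a subunit of the other prolyl hydroxylase and a general disulfide isomerase, was among the lowest genes and is given with them below. *Adamtsl2*, a secreted relative of matrix proteases that lacks the protease domain, differed by 1.36.

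Genes that stellate cells express before activation were also higher, in 33 of 37 members of that list (median 1.34), beside 41.0% of all genes. Of the other members, 2 were lower and 2 were called in neither direction. This list held the 5 markers apart from *Col3a1*, so part of its count repeats theirs. The whole table had been limited to genes of stellate cells. *Abcc9*, a subunit of a potassium channel of stellate cells and pericytes, stood at 24.3, 31.5, 26.7 and 21.2 in DESMIN+ and at 5.43, 4.23, 5.69 and 4.61 in Other segments (2.16, SE 0.13, adjusted p = 1.16e-08, higher in 41 ROIs). *Sod3*, the extracellular superoxide dismutase, differed by 2.09, *Hgf*, the growth factor for hepatocytes, by 1.91, *Bmp5* by 1.77, the endothelin receptor *Ednrb* by 1.66, the oxygen-binding globin *Cygb* by 1.49 and the stellate transcription factors *Hand2* and *Lhx2* by 1.55 and 1.04. *Lrat*, the enzyme that forms retinyl esters for vitamin A storage, stood at 15.7, 23.7, 20.8 and 17.7 in DESMIN+ and at 6.52, 6.13, 8.13 and 6.2 in Other segments (1.39, SE 0.12). The 2 lower members were *Cebpb*, a transcription factor of hepatocytes and other cells, at -0.66 (SE 0.10), and *Nr1h4*, the bile acid receptor FXR, at -0.76 (SE 0.11). Within 5 retinoid and lipid genes 2 were higher, 2 lower and 1 in neither direction (median 0.12), near the median of all genes, and *Rarres2*, the secreted attractant chemerin, was among the lower ones at -0.83.

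The list of receptor tyrosine kinases and growth factors, which includes binding proteins of growth factors, was higher as well. All 13 of its genes were called higher (median 0.93), beside 41.0% of all genes. *Igfbp3*, a carrier of insulin-like growth factors, varied between livers, with 113, 136, 53.4 and 75.6 in DESMIN+ and 13.2, 13.6, 12.1 and 12.2 in Other segments (2.70, SE 0.16, adjusted p = 1.24e-08). Its relative *Igfbp7* stood at 266, 222, 238 and 208 against 52.5, 40.1, 52.6 and 41.3 (2.30, SE 0.10), higher in 41 of 41 ROIs. The receptors for platelet-derived growth factor, through which stellate cells are driven to divide, differed less, with 0.93 for *Pdgfrb* and 0.61 for *Pdgfra*, and the collagen receptor *Ddr2* with 0.67. *Fgfr2*, a receptor for fibroblast growth factors, differed by 1.58.

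Of 12 TGF-beta and BMP pathway genes, 10 were higher, 1 was lower and 1 was in neither direction (median 0.84), beside 41.0% of all genes higher and 32.8% lower. *Ltbp4*, which tethers latent TGF-beta to matrix and is in the glycoprotein list too, differed by 1.47, *Fstl1*, a secreted modulator of BMP signals, by 1.39, the co-receptor *Tgfbr3* by 1.01 and the decoy receptor *Bambi* by 0.70. The receptor *Bmpr1a* was the lower gene, at -0.48 (SE 0.13, adjusted p = 0.003), with livers that overlapped. It did not pass with a common floor of 3 counts or with background subtraction.

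Pericyte and smooth muscle genes were higher in 13 of 15 cases (median 0.61), with 1 lower (*Cnn3*, a calponin of non-muscle cells, -0.46). The higher share over all genes was 41.0%. After re-centring 8 were higher, 2 lower and 5 in neither direction (median 0.30). *Rgs5*, a regulator of G protein signals and pericyte marker, stood at 41.5, 37.5, 52.5 and 36.9 in DESMIN+ and at 10.1, 8.40, 12.3 and 9.22 in Other segments (1.97, SE 0.10, adjusted p = 3.77e-09). *Tagln*, an actin-binding protein of smooth muscle and activated stellate cells, stood at 12.5, 29.2, 23.2 and 23.1 against 6.87, 7.09, 9.15 and 6.36 (1.41, SE 0.16), with liver 1 lowest in DESMIN+ segments. Portal fibroblast and mesothelial genes were higher in 4 of 4 cases (median 1.19), which were *Gsn* (1.84), an actin-severing protein, *Dpt* (1.49), a matrix protein of fibroblasts, *Islr* (0.88) and *Eln* (0.69), which encodes elastin. Of the listed genes, 15 of 41 for pericytes and smooth muscle and 4 of 28 for portal fibroblasts and mesothelium were analysed. *Abcc9*, *Rgs5*, *Pdgfrb* and *Des* are in the stellate list too. The table had been limited to genes of stellate cells, so these counts cannot show that other cell types were in a DESMIN+ area. How much each cell type gave was not tested.

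The wider actin, adhesion and contractile list did not move one way. Of its 38 genes, 19 were higher, 6 were lower and 13 in neither direction (median 0.22), beside 41.0% of all genes higher and 32.8% lower. After re-centring, 8 of the 38 were higher and 12 lower. *Tmsb10*, which binds actin monomers, stood at 56.6, 58.3, 73.8 and 67.0 against 13.9, 13.4, 19.1 and 12.9 (2.05, SE 0.11). *Vim*, the intermediate filament vimentin, and *Flna*, an actin cross-linker, differed by 1.6 and 1.61. *Myl9*, the light chain of smooth muscle myosin, differed by 0.55 (SE 0.14, adjusted p = 0.004), with livers that overlapped, and *Marcks*, which links actin to the membrane, by -0.70. Axon guidance and neural adhesion genes split likewise, with 7 of 14 higher, 3 lower and 4 in neither direction (median 0.24). *Ntn1*, *Dpysl2* and *Sema6d* differed by 1.17, 1.24 and 1.04, and *Plxnb2*, a semaphorin receptor, by -0.67.

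**Figure D3:**
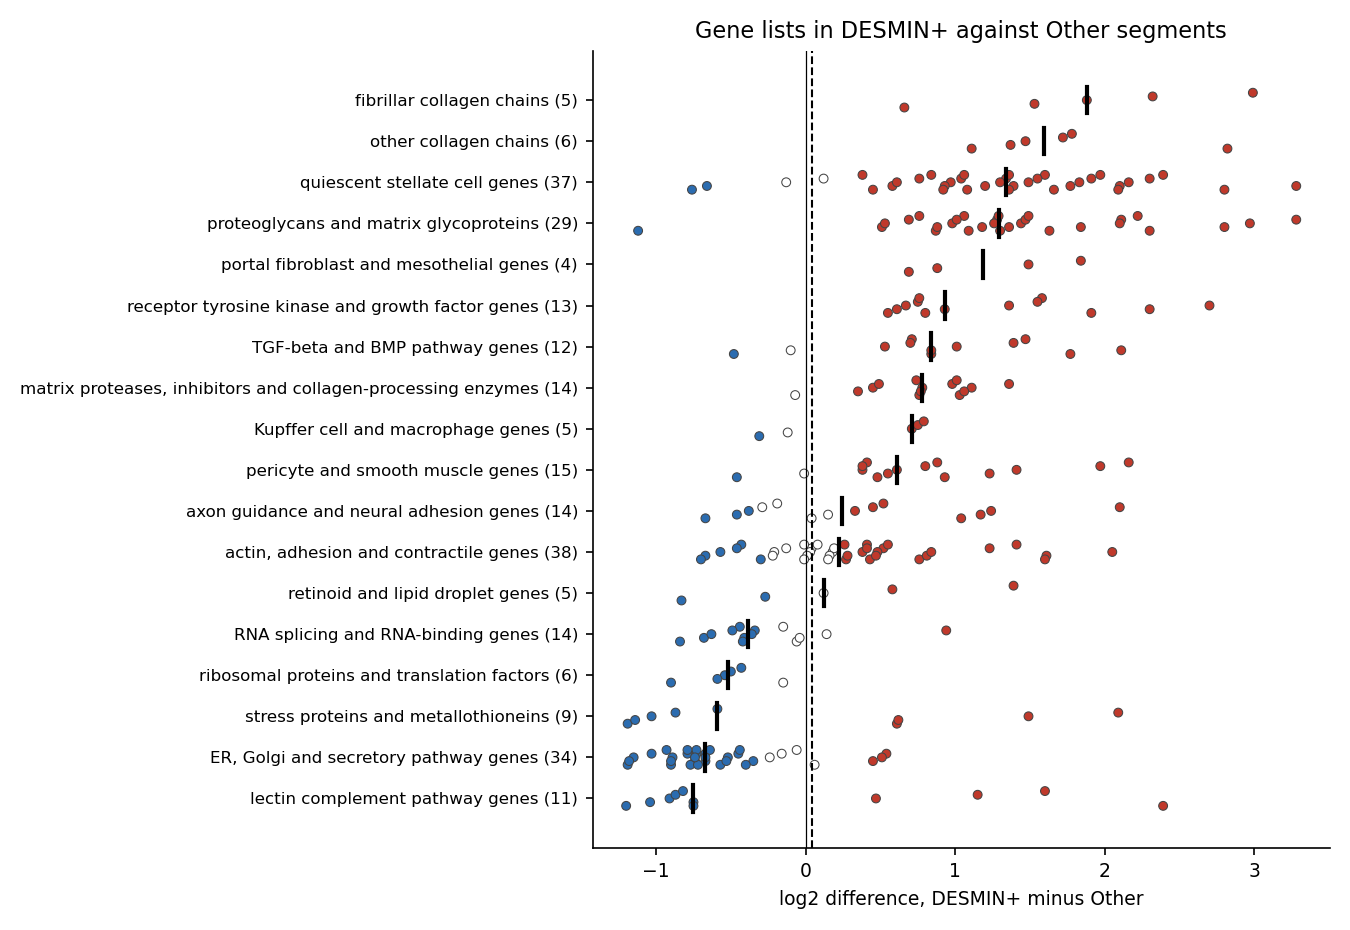
Difference between DESMIN+ and Other segments (log2, DESMIN+ minus Other, x axis) for the genes of each list (y axis), with 1 point per gene, coloured by call, and a bar at the list's median over 4 livers. The 11 collagen chains all lie above 0, from 0.66 to 2.99, and 27 of 34 secretory pathway genes were called lower.

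*Oaf*, the lowest gene, stood at 35.3, 29.5, 29.4 and 36.8 in DESMIN+ and at 77.8, 92.9, 83.0 and 94.6 in Other segments, a difference of -1.39 (SE 0.11, limma adjusted p = 2.35e-07), or 2.61-fold higher in Other segments. *Cp*, the copper-carrying plasma protein ceruloplasmin, stood at 69.6, 68.0, 70.2 and 86.0 against 175, 184, 171 and 159 (-1.22, SE 0.12), and *C4b*, complement component 4, at 119, 106, 107 and 158 against 285, 283, 232 and 328 (-1.20, SE 0.11). The other lowest genes were *P4hb*, *Hspa5* and *Pdia4* (-1.19, -1.19 and -1.18), which fold proteins in the endoplasmic reticulum (ER), *H6pd* (-1.16), which supplies NADPH there, *Zfp36* (-1.15), which destabilizes inflammatory messages, *Lman1* (-1.15), a cargo receptor between ER and Golgi, *Xbp1* (-1.14), a transcription factor of the unfolded protein response, *Fn1* (-1.12) and *Rsrp1* (-1.07). These 12 lowest genes were picked among called genes with the same sign in 4 of 4 livers, so that sign was set by the choice. They were lower in at least 39 of 41 ROIs and their livers did not overlap, as for 29.5% of all genes. Both come from the values that ranked them. The 12 genes were 2.10- to 2.61-fold higher in Other segments.

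Of 34 ER, Golgi and transport genes, 27 were lower, 3 were higher and 4 were in neither direction (median -0.67), against 32.8% of all genes lower. *P4hb* stood at 99.2, 105, 104 and 134 in DESMIN+ and at 226, 277, 237 and 274 in Other segments, with no ROI in which DESMIN+ was higher. *Hspa5*, the ER chaperone BiP, which is counted in the list of stress genes and not in this one, stood at 46.5, 34.4, 38.5 and 36.3 against 79.2, 127, 70.9 and 90.0, and *Lman1* at 27.5, 27.1, 29.2 and 25.9 against 54.6, 67.1, 59.1 and 67.9. The chaperones *Calr* and *Canx*, which fold glycoproteins, differed by -0.93 and -0.74, and the disulfide isomerases *Pdia6* and *Pdia3* by -1.03 and -0.90. The 3 higher genes were *Fkbp9* (0.54), a prolyl isomerase of the ER, and the calcium-binding proteins *Rcn1* (0.45) and *Rcn3* (0.51), and none of the 3 passed after re-centring, where 30 of the list were lower. *Rcn3* also lost its call without liver 2 (0.33) or liver 4 (0.46). Of the 34 members, 20 were in the part of the genes with the highest mean level. There, 18 of the 20 were lower (median -0.78), beside 139 of all 202 genes (median -0.53).

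Several of the lower genes are known targets of the unfolded protein response, whose factors bind the ER stress element, a box of CCAAT followed after 9 bases by CCACG, in promoters. RefSeq promoters (GRCm38.p6, from 250 bases before to 50 bases after the start of each gene) were at hand for 464 of the 607 genes, 190 of the higher and 153 of the lower ones. Searched on both strands, the sequence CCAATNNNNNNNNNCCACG was in 7 of the 153 lower genes (4.58%), in 0 of the 190 higher genes, and in 37 of all 27025 promoters of the table (0.137%). This sequence was chosen after the lower genes had been seen. It was in 3 of 27 promoters of the secretory list (11.1%) and in 1.51% of all analysed genes, so most lower genes did not hold it. The 8 matches are shown as the places where it occurs among the lower genes, with the 19 bases of the match in capitals, written along the strand on which they matched, and 10 neighbouring bases on each side where the window held them.
Hspa5: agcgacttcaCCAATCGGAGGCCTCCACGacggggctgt
Hsp90b1, first match: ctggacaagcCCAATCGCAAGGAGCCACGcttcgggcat
Hsp90b1, second match: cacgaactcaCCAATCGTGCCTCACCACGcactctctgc
Calr: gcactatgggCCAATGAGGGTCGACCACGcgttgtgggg
Canx: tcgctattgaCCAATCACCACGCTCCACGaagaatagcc
Pdia6: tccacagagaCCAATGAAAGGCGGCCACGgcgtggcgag
Dnajc3: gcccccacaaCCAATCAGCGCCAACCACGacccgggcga
Hnrnpa3: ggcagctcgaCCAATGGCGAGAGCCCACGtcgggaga

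The matches lie at chr2:34772025-34772043 (*Hspa5*), chr10:86705638-86705656 and chr10:86705533-86705551 (*Hsp90b1*), chr8:84847075-84847093 (*Calr*), chr11:50325800-50325818 (*Canx*), chr12:17266491-17266509 (*Pdia6*), chr14:118937827-118937845 (*Dnajc3*) and chr2:75659017-75659035 (*Hnrnpa3*). Those of *Calr*, *Hnrnpa3* and the second of *Hsp90b1* are on the strand opposite to the gene. Of these genes *Hsp90b1*, the ER form of HSP90, differed by -1.03, *Dnajc3*, a co-chaperone of BiP, by -0.95 and *Hnrnpa3*, an RNA-binding protein that does not belong to the ER, by -0.36, the last with livers that overlapped. The whole *Hspa5* promoter (chr2:34771840-34772139, + strand) shows the match in its setting, with the element in capitals upstream of the TATA-like letters tatataa.
Hspa5 promoter: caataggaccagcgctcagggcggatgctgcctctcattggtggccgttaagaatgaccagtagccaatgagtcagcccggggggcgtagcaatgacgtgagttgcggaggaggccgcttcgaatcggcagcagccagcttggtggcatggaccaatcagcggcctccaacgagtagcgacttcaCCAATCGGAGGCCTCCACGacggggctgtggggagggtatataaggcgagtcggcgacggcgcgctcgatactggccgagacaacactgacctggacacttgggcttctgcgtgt

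The short CCAAT box, which every match above contains, was in 52.3% of the promoters of lower genes and 36.3% of those of higher genes, beside 42.5% of all analysed genes and 41.1% of the table. It was in 70.4% of the promoters of the secretory list. The letters GGGCGG were in 71.9% of lower and 66.3% of higher genes against 38.2% of the table, and TATAAA in 11.1% and 12.1% against 15.7%. The ratio of CpG dinucleotides observed over expected had a median of 0.841 in lower and 0.58 in higher genes. These are descriptions of letters within the window, not of factors bound there.

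Genes for RNA handling and translation were lower in most cases, beside 32.8% of all genes and 139 of 202 in the part with the highest levels. Of 14 splicing and RNA-binding genes, 9 were lower and 1 higher (*Rbms3*, 0.94, median of the list -0.39), and of 6 ribosomal and translation factor genes, 5 were lower and none was higher (median -0.52). *Eif5a*, a translation factor, stood at 58.2, 73.0, 70.8 and 72.2 in DESMIN+ and at 126, 130, 126 and 129 in Other segments (-0.90, SE 0.11). Of the 9 stress genes 4 were higher and 5 lower (median -0.59), beside 41.0% and 32.8% of all genes. *Mt1*, a metal-binding protein of the acute phase, ranged widely between livers, with 121, 31.4, 28.3 and 102 in DESMIN+ and 271, 49.5, 56.0 and 167 in Other segments, and was lower in DESMIN+ segments of each liver (-0.87, SE 0.11, adjusted p = 1.84e-05), although the livers of both types overlapped. *Cryab*, a small heat shock protein of muscle and stellate cells, differed by 0.61, and the hydrogen peroxide-reducing enzyme *Prdx2* by -0.59.

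Of 11 members of the lectin pathway of complement, 4 were higher, 7 lower and none without a call (median -0.75), beside 41.0% and 32.8% of all genes. Against MARCO+ segments, described below, 6 were higher and 4 lower (median 0.35), beside 36.6% and 23.4% of all genes. The higher members were the collectins *Colec11* and *Colec10*, the ficolin *Fcna* and the protease *Masp1*, which recognize sugars or act with the molecules that do. *Colec10* stood at 25.5, 24.7, 25.8 and 23.2 in DESMIN+ and at 7.84, 6.70, 7.84 and 7.56 in Other segments (1.6, SE 0.10, adjusted p = 2.38e-08), and *Masp1* at 54.4, 67.5, 46.1 and 59.8 against 36.1, 43.8, 37.8 and 44.6 (0.47, SE 0.11, adjusted p = 0.001). *Masp1* did not pass after re-centring. Among the lower members were the components *C4b* (-1.20) and *C2* (-1.04), the inhibitor *Serping1* (-0.75), the proteases of the classical pathway *C1s1* (-0.87) and *C1ra* (-0.82), and *Colec12* (-0.75), a membrane scavenger receptor. *Serping1*, the C1 inhibitor, stood at 105, 94.9, 83.0 and 130 against 178, 180, 138 and 197, lower in 41 of 41 ROIs. *C4b*, *C1ra* and *C1s1* have near-identical copies in the mouse genome, so their values are uncertain as to the copy measured.

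The MARCO+ segments of the same livers were closer to the DESMIN+ segments in depth (3106 to 27341 counts, median 8408) and served as a second comparison, which shares the DESMIN+ values with the one above. Against MARCO+ segments, 222 genes were higher (36.6%) and 142 lower (23.4%) in DESMIN+ segments, with a median of 0.07. All 11 collagen chains and 29 of 29 proteoglycans and glycoproteins were higher there too, with medians of 1.72 for fibrillar chains, 1.41 for other chains and 1.09 for the glycoproteins. *Dcn* stood at 56.4, 57.9, 50.7 and 47.5 in MARCO+ segments of livers 1 to 4, between the Other and the DESMIN+ values in each liver.

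The secretory genes differed less from the MARCO+ segments. Of the 34, 1 was higher, 9 were lower and 24 were in neither direction (median -0.19). In this comparison 36.6% of all genes were higher and 23.4% lower, so the lower share of the list lay near that of all genes. *P4hb* was at -0.06 and *Lman1* at -0.01 against MARCO+ segments, neither past the threshold, and *Oaf* at 0.02 and *Cp* at 0.14 likewise. *Hspa5*, of the stress list, was lower at -0.73 (SE 0.12, adjusted p = 1.31e-04). *Fn1* turned from -1.12 against Other to 0.31 against MARCO+ segments (adjusted p = 0.040), as did the complement genes *Serping1* (0.60), *C1s1* (0.48) and *C1ra* (0.35). Depth moved together with these values, since the MARCO+ segments were nearer in depth than the Other segments, and its part was not tested.

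**Figure D4:**
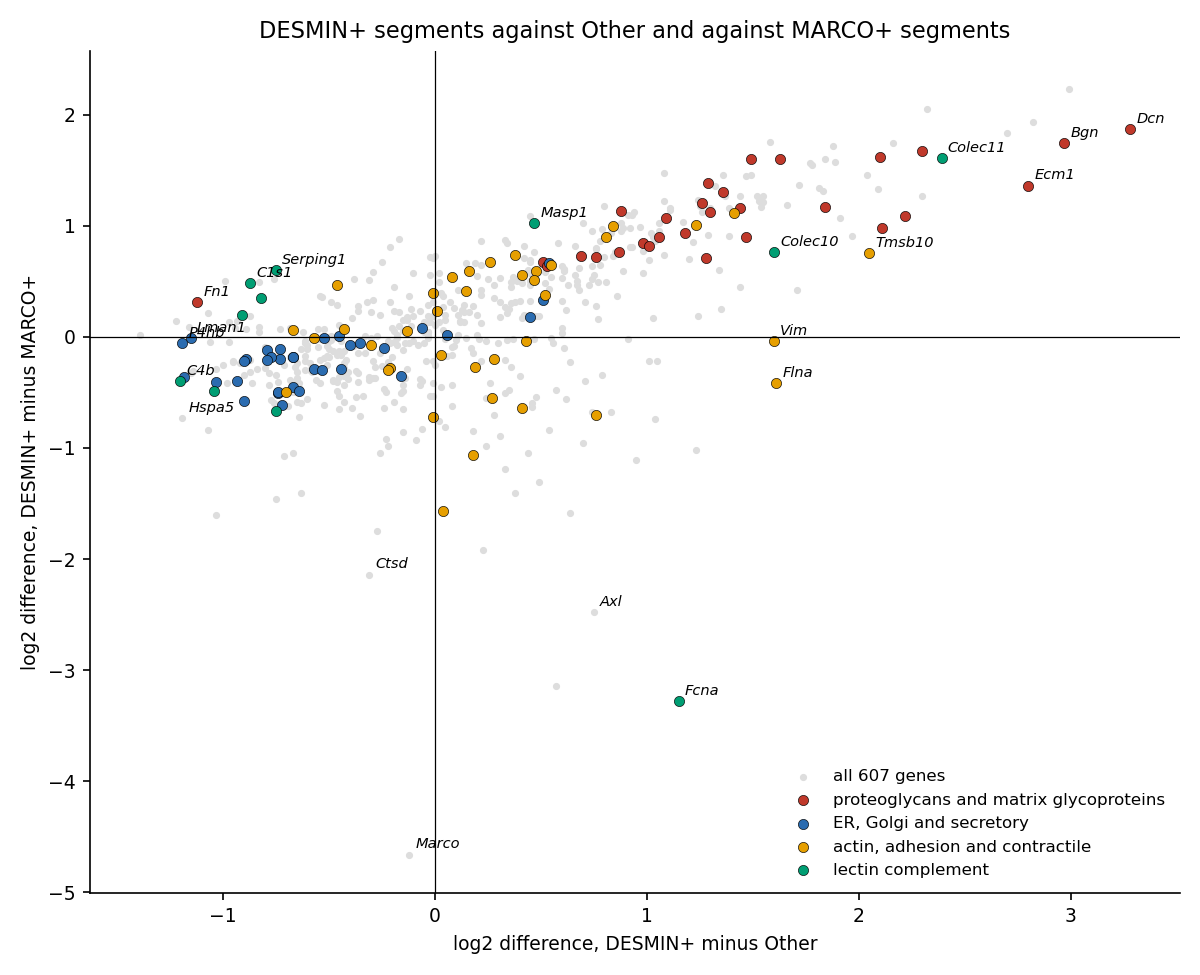
Difference of each gene against MARCO+ segments (log2, DESMIN+ minus MARCO+, y axis) and against Other segments (log2, DESMIN+ minus Other, x axis), with 1 point per gene for 607 genes and 4 livers, both axes sharing the DESMIN+ values and colours marking 4 gene lists. *Dcn* and *Bgn* lie high on both axes, *P4hb* and *Lman1* lie near 0 against MARCO+ and at -1.19 and -1.15 against Other segments, and *Fcna* and *Axl* lie above 0 against Other and far below 0 against MARCO+ segments.

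Some genes that were higher in DESMIN+ than in Other segments were far higher still in macrophage segments. *Fcna* stood at 15.0, 19.1, 22.3 and 23.7 in DESMIN+, at 8.10, 6.83, 11.2 and 7.92 in Other and at 191, 204, 226 and 185 in MARCO+ segments. It thus differed by 1.15 (SE 0.13) from Other and by -3.28 (SE 0.13, adjusted p = 9.87e-11) from MARCO+ segments. *Axl*, a receptor that macrophages use to clear dying cells, differed by 0.75 and -2.48. *Vim* and *Flna*, higher than in Other segments by 1.6 and 1.61, were at -0.04 and -0.42 against MARCO+ segments without passing.

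Over the whole macrophage list, 5 of 54 genes were analysed. Of all genes, 41.0% were higher and 32.8% lower against Other segments, and 36.6% and 23.4% against MARCO+ segments. Against Other segments *Axl*, *Id3* and *Plac8* were higher, *Ctsd* was lower, though not past the threshold without liver 1 (-0.30) or liver 3 (-0.29), and *Marco* was in neither direction (median 0.71). Against MARCO+ segments all 5 were lower (median -2.14). Their summed level ran from 139 to 166 in DESMIN+, from 136 to 154 in Other and from 633 to 1333 in MARCO+ segments over the 4 livers. Defining genes of Kupffer cells such as *Clec4f* and *Adgre1* were not analysed here, and the part of macrophage RNA in the DESMIN+ values was not tested. Of 3 endothelial genes 2 were higher and 1 was in neither direction, the higher ones being *Igfbp7* and *Plvap* (1.20), of which *Plvap* is in the stellate list too. Of 3 cholangiocyte genes *Bicc1* was higher (0.74) and 2 were in neither direction, *Alcam* among them at -0.29, which passed without liver 4 (-0.44) and without the deepest DESMIN+ segment (-0.30). The hepatocyte gene analysed was *Nr1h4*, at a level of 23.8 to 37.2 in DESMIN+, 42.0 to 54.9 in Other and 16.0 to 27.3 in MARCO+ segments. Of 30 lymphocyte genes none was analysed.

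Whether the difference between segments depended on the MARCO class of the region was asked by subtracting the MarcoLo from the MarcoHi difference in each liver. For 10 genes (1.65%) the DESMIN+ excess was smaller in MarcoHi ROIs and for 2 genes (0.329%) it was larger. All 12 had the same sign in 4 of 4 livers, which comes from the values that called them. *Fgfr2* differed from Other segments by 1.11, 1.05, 0.58 and 1.01 in MarcoHi ROIs of livers 1 to 4 and by 2.31, 2.38, 2.07 and 2.08 in MarcoLo ROIs, a difference between classes of -1.27 (SE 0.20, limma adjusted p = 3.69e-04). *Cxcl12*, the chemokine that holds leukocytes and stem cells in their niche, differed by 0.32, 1.15, 0.13 and 0.58 in MarcoHi and by 1.47, 1.79, 1.52 and 1.69 in MarcoLo ROIs (-1.07, SE 0.21, adjusted p = 0.003). *Lum* differed by 0.75, 1.13, 0.42 and 1.04 against 1.88, 2.04, 1.67 and 1.93 (-1.05, SE 0.20, adjusted p = 0.003). In each of these 3 genes, every MarcoLo value lay above every MarcoHi value. They were picked by their p over these same livers, so this separation comes in part from the choice.

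The 2 genes with a larger excess in MarcoHi ROIs were *Myl9* and *Ccn2*. *Myl9* differed from Other segments by 1.30, 1.55, 0.78 and 0.52 in MarcoHi ROIs and by 0.13, 0.65, -0.41 and -0.08 in MarcoLo ROIs (0.96, SE 0.21, adjusted p = 0.008). *Ccn2*, a matricellular protein that TGF-beta and mechanical strain induce, differed by 1.65, 1.12, 1.25 and 0.88 against 0.60, 0.28, 0.25 and 0.69 (0.77, SE 0.21, adjusted p = 0.048). The other genes with a smaller excess in MarcoHi ROIs were *Fcna*, *Col6a2*, *Gdf10*, *Plac8*, *Efemp1*, *Arvcf* and *Abcc9*, from -0.91 to -0.76. No fibrillar collagen chain passed (median of the 5 chains -0.48).

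**Figure D5:**
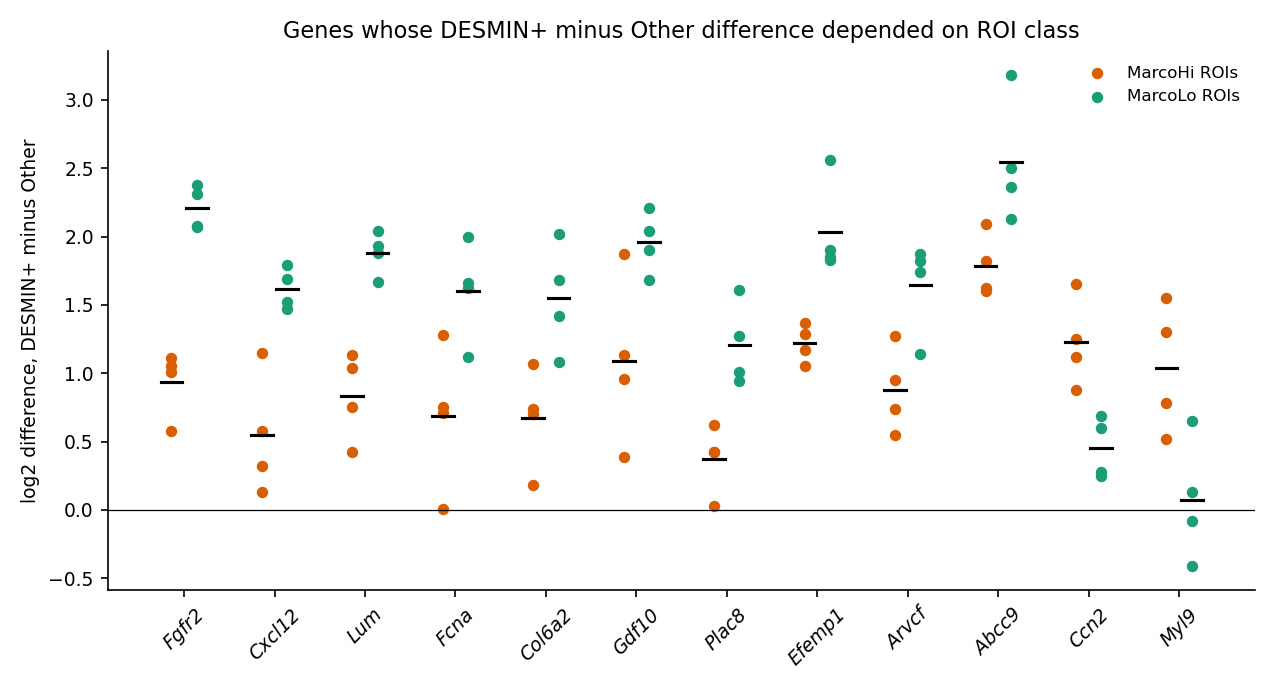
Difference between DESMIN+ and Other segments (log2, DESMIN+ minus Other, y axis) in MarcoHi and MarcoLo ROIs for the 12 genes whose difference depended on the class, with 1 point per liver and a bar at the mean of 4 livers. The MarcoLo points of *Fgfr2*, *Cxcl12* and *Lum* all lie above their MarcoHi points, and *Myl9* and *Ccn2* lie the other way round. The 12 genes were called on these same values.

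Depth differed between the classes, with a median of 3089 counts in the DESMIN+ segments of MarcoHi ROIs and 4602.5 in those of MarcoLo ROIs, and a median of 20.4% and 9.39% of the genes at 1 count. Without the 6 shallowest DESMIN+ segments, all in MarcoHi ROIs, 0 genes were higher and 6 lower (74 genes at an unadjusted p below 0.05), and without the deepest DESMIN+ segment 0 were higher and 3 lower (67 unadjusted). Leaving out 1 liver gave 0 to 3 higher and 3 to 8 lower genes, with the fewest without liver 2 (0 and 3), and without liver 4 there were 3 and 4. *Fgfr2*, *Cxcl12* and *Lum* passed under each of the 18 alternatives run, *Myl9* under 14 of them, with losses with a floor of 3 counts (0.44), without liver 2 (0.99) and without the 6 shallowest (0.87) or the deepest segment (0.91), and *Ccn2* under 4 of the 17 that could be fitted for it, with losses, among others, without liver 1, 2 or 3 (0.68, 0.75 and 0.69), without the 6 shallowest (0.62) and without the deepest segment (0.74).

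The difference between segments was also compared between the livers labelled treated CCl4 and control, with 2 livers in each. In limma, 0 of 607 genes passed (0%), with 30 at an unadjusted p below 0.05, and 0 passed under any of the alternatives. The smallest unadjusted p values were those of *Dpt* (-0.78, SE 0.21, adjusted p = 0.635), *Flna* (-0.75, SE 0.21, adjusted p = 0.635) and *Socs2* (-0.71, SE 0.21, adjusted p = 0.635), treated CCl4 minus control. These 2 livers against 2 leave differences of this size undetected, so the count of 0 does not show that the labels acted alike. *Dcn*, *Col3a1* and the other 3 markers were higher in DESMIN+ segments in both livers of each label.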

How the data were processed

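The deposited signal values were Q3-normalized counts. The authors had sequenced the probe barcodes and made FASTQ files with bcl2fastq (2.20.0.422, per the submitters' processing notes). They removed duplicates by molecular identifier with the GeoMx NGS Pipeline and filtered segments against negative probes (genome build mm10 in the notes). They scaled to the upper quartile and limited the data to genes of stellate cells. The deposited table held 607 genes, fewer than the stellate cell genes counted in the methods. The sources used here do not say why. Dividing by the step of its segment made 96513 of 96513 values whole within a relative tolerance of 1e-06, which gave back the counts. The labels speak of 216 segments, of which 159 were analysed here.

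Segment type, ROI class and liver came from the sample names, and 1 ROI of liver 4 took its class from the sample titles. Segments were averaged as described in the report and fitted with limma (3.58.1, R 4.3.3). Numbers 1 to 4 name the same liver in both segment types, so liver was a block. Whether the livers came from separate runs is not given in the sources used here. The alternatives were pseudocounts of 0 and 5, leaving out low genes, other means over segments, re-centring, equal totals, count floors, background subtraction, edgeR (4.0.16) and DESeq2 (1.42.0) on recovered counts, the mixed model of the methods (lme4 1.1.37, lmerTest 3.1.3), single classes or labels, and leaving out each liver. Methods were tested on simulated data. Named are the 5 markers, the 12 highest and 12 lowest genes, *Des* and *Marco*, up to 3 genes per direction of each interaction, and list members. The comparison, markers and lists were chosen with earlier results of these data known. The class-dependent genes beyond that rule and the genes of the promoter description were chosen after their values were seen. Figures used matplotlib (3.10.9). Negative probes were not analysed here, antibody images were not used, and some genes are not reported here.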

Additional observations from a re-analysis of the deposited data

Results flagged for a closer look

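In 11 of 128 genes tested, 1 liver stood apart from the other 3 in the difference of DESMIN+ minus Other segments by more than Dixon's critical gap for 4 values. Chance flags about 1 in 20 such groups. Liver 1 stood apart for *Adamtsl2* (1.79), *Eif5a* (-1.10), *Luc7l2* (-1.16) and *Sec31a* (-0.98). Liver 2 did so for *Abcc9* (2.63), *Fstl1* (1.82), *Calr* (-1.16) and *Kdelr1* (-1.37), and liver 4 for *Fn1* (-0.99), *Ctsd* (-0.16) and *Rtn4* (-0.38). All of these genes had the same sign in the 4 livers.

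The difference between DESMIN+ and Other segments depended on the MARCO class of the ROI for 12 genes, by a test of the difference itself. MarcoHi minus MarcoLo was -1.27 for *Fgfr2*, -1.07 for *Cxcl12*, -1.05 for *Lum*, -0.91 for *Fcna*, -0.88 for *Col6a2*, -0.87 for *Gdf10*, -0.84 for *Plac8*, -0.81 for *Efemp1*, -0.77 for *Arvcf* and -0.76 for *Abcc9*. It was 0.96 for *Myl9* and 0.77 for *Ccn2*. The depth of the DESMIN+ segments differs between the classes, and its part in these values was not tested.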

How the results depend on the processing

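The counts of 249 higher and 199 lower genes moved by over 1.5 times under 2 settings. Without the genes of low value (404 left) 126 were higher and 199 lower. In the reported fit, the part of the genes with the lowest levels had 125 higher and 8 lower genes. After re-centring of each segment to its own median 302 were lower. In the 4 fits that each left out 1 liver, 229 to 248 genes were higher and 181 to 195 lower. Without liver as a block, 239 were higher and 191 lower, all of them called with the block too, and of the named genes *Mt1* alone lost its call. Re-centring kept 172 of the 249 higher and 199 of the 199 lower genes, and background subtraction kept 249 and 172 and turned 1 lower gene to higher. Against MARCO+ segments, 114 genes in place of 222 were higher without the genes of low value, and 193 to 216 were higher and 112 to 129 lower without 1 liver.

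The count of genes that depended on the ROI class (2 higher, 10 lower) was the least stable. It was 1 higher with a pseudocount of 0, 4 and 18 with a pseudocount of 5, 4 higher without the genes of low value, 1 higher with the mean of log2 values, 1 and 6 with the median over segments, 1 and 3 after re-centring, with equal totals or without the ROI that has no class in its name, 4 and 17 with a floor of 1 count, 10 and 91 with a floor of 3 counts, 4 lower with background subtraction, and 4 and 18 with an intensity trend. Without 1 liver it was 0 to 3 higher and 3 to 8 lower. In alternatives added after the data were seen, it was 0 and 6 without the 6 shallowest and 0 and 3 without the deepest DESMIN+ segment. The cause was not tested.

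Of the single genes, *Marco* changed its sign against Other segments, without passing, with a floor of 3 counts (0.02), with background subtraction (0.19), without replicate 3 (0.07, with -0.26 to 0.07 over the fits without 1 liver), in MarcoHi ROIs only (0.28) and in edgeR with upper-quartile factors (0.12). Of 4175 values under alternatives, 4073 stayed on the same side of the threshold with the same direction. A DESMIN+ segment has few counts per gene, so falls of low genes there are limited by the floor of 1 count.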
